A study of Sus scrofa with 9 samples.

Results

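The myogenic and MEF2 transcription factors considered here are MYOD1, MYOG, MYF5, MYF6, PAX7, MEF2A, MEF2C and MEF2D, a list of 8 genes taken by symbol. No cut on their values was used, but the list was chosen with earlier results of these data known. The array's annotation gives 1 probe set each to 6 of them, MYOD1, MYOG, MYF6, MEF2A, MEF2C and MEF2D, among 27558 probe sets and 12361 named genes in all. MYF5 and PAX7 are not analysed here, because no probe set carries only their symbol. Expression was measured on whole-transcript arrays in the longissimus dorsi, a back muscle, of 9 male pigs in the finishing phase, which weighed about 95 kg when the diets began. For 5 weeks 3 pigs ate feed deficient in lysine, 3 ate feed with adequate lysine and 3 ate feed with lysine in excess, and each pig gave 1 array. Deficient pigs are numbered 1, 2 and 3, adequate pigs 5, 6 and 7 and excess pigs 9, 10 and 11. The study asked how the dietary supply of lysine, an essential amino acid that often limits growth in pigs, relates to gene expression in muscle. The breed, the age and the lysine content of the diets are not stated in the labels.

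MYOD1, MYF5, MYOG and MYF6 are basic helix-loop-helix proteins that bind E-box sequences together with E proteins and can turn other cells towards the muscle fate. MYF5 and MYOD1 act in committed myoblasts, MYOG drives their differentiation, and MYF6, also called MRF4, is the member best known from mature fibres of adult rodents. PAX7 marks satellite cells, the stem cells that lie along the fibres. MEF2 proteins are MADS-box factors that cooperate with the myogenic factors, and in adult mouse fibres they respond to calcium signals and are held back by class IIa histone deacetylases. In the pig gene table MYF5 and MYF6 are direct neighbours on 1 chromosome.

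Values are the deposited log2 values, so that a difference of 1 is a 2-fold change, and levels of different probe sets are not set against each other. The tissue label was checked with 7 measured markers of skeletal muscle fibres, ACTA1, NEB, MYH1, MYH7, MYLPF, ACTN3 and RYR1. Their mean levels lay between 12.2 and 13.4, and all lay above the median of all probe sets, 5.07, on every array. The array of excess pig 11 stood apart before any gene was considered. It correlated with the others at 0.904 to 0.956, against 0.977 to 0.992 among the other 8, and its values spread less, with an SD of 1.82, against 1.93 to 1.99. The members' differences from excess pigs are therefore given with and without it, and those of other genes and lists where leaving it out moves the value by over 1.5 times. By limma's array quality weights excess pig 11 was not alone. Excess pigs 9, 10 and 11 had weights of 0.678, 0.192 and 0.220, against 0.902 to 2.46 for the deficient and adequate pigs. The fit without excess pig 11 thus keeps excess pig 10, the array of lowest weight.

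MYOD1, the myoblast determination factor, had log2 levels of 5.29, 5.70 and 5.57 in deficient pigs 1, 2 and 3, of 5.10, 5.32 and 4.94 in adequate pigs 5, 6 and 7, and of 5.44, 5.54 and 4.69 in excess pigs 9, 10 and 11. Deficient pigs 2 and 3 lay above all adequate pigs, and pig 1 lay just below adequate pig 6. The excess pigs were split, with pigs 9 and 10 above the adequate pigs and pig 11 the lowest of the 9. MYOD1 was near the median of all probe sets, above its own array's median in 7 of 9 pigs. Signal over background was not tested, so its fold changes are not exact.

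MYOG, myogenin, had levels of 9.58, 8.87 and 9.12 in deficient pigs 1, 2 and 3, of 8.79, 9.12 and 9.48 in adequate pigs 5, 6 and 7, and of 8.89, 8.91 and 8.30 in excess pigs 9, 10 and 11. The deficient and adequate pigs were interleaved, and excess pigs 9 and 10 fell inside their range while pig 11 was below it. It had the widest range of the 6 genes, 1.29 on the log2 scale over the 9 pigs. MYF6 had levels of 5.45, 5.84 and 5.39 in deficient pigs 1, 2 and 3, of 5.64, 5.09 and 5.47 in adequate pigs 5, 6 and 7, and of 5.45, 5.02 and 5.50 in excess pigs 9, 10 and 11. All 3 diets overlapped for MYF6, and its highest value was that of deficient pig 2 and its lowest that of excess pig 10. Like MYOD1 it lay near the median of all probe sets, above its own array's median in 8 of 9 pigs.

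MEF2A had levels of 11.28, 11.37 and 11.39 in deficient pigs 1, 2 and 3, of 11.21, 11.35 and 11.17 in adequate pigs 5, 6 and 7, and of 11.20, 11.16 and 11.12 in excess pigs 9, 10 and 11. Every deficient pig lay above every excess pig, and the adequate pigs overlapped both groups. The range over all 9 pigs was 0.27, the narrowest of the 6 genes. Its spread within diets was an SD of 0.067, smaller than that of most of the 400 probe sets within 0.5 log2 units of its level, of which 5.5% were smaller still (median 0.136).

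MEF2C, a MEF2 form needed for fibre integrity in newborn mice, had levels of 11.98, 12.03 and 11.67 in deficient pigs 1, 2 and 3, of 12.18, 11.76 and 11.70 in adequate pigs 5, 6 and 7, and of 11.84, 11.99 and 11.47 in excess pigs 9, 10 and 11. The 3 diets overlapped, with adequate pig 5 the highest and excess pig 11 the lowest. Its within-diet SD of 0.241 was larger than that of 90.8% of the 271 probe sets of like level, the opposite end from MEF2A. MEF2D had levels of 8.80, 8.88 and 9.19 in deficient pigs 1, 2 and 3, of 9.00, 9.07 and 8.69 in adequate pigs 5, 6 and 7, and of 9.05, 8.65 and 8.35 in excess pigs 9, 10 and 11. Excess pigs 10 and 11 lay below all others, and excess pig 9 was among the highest.

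**Figure D1:**
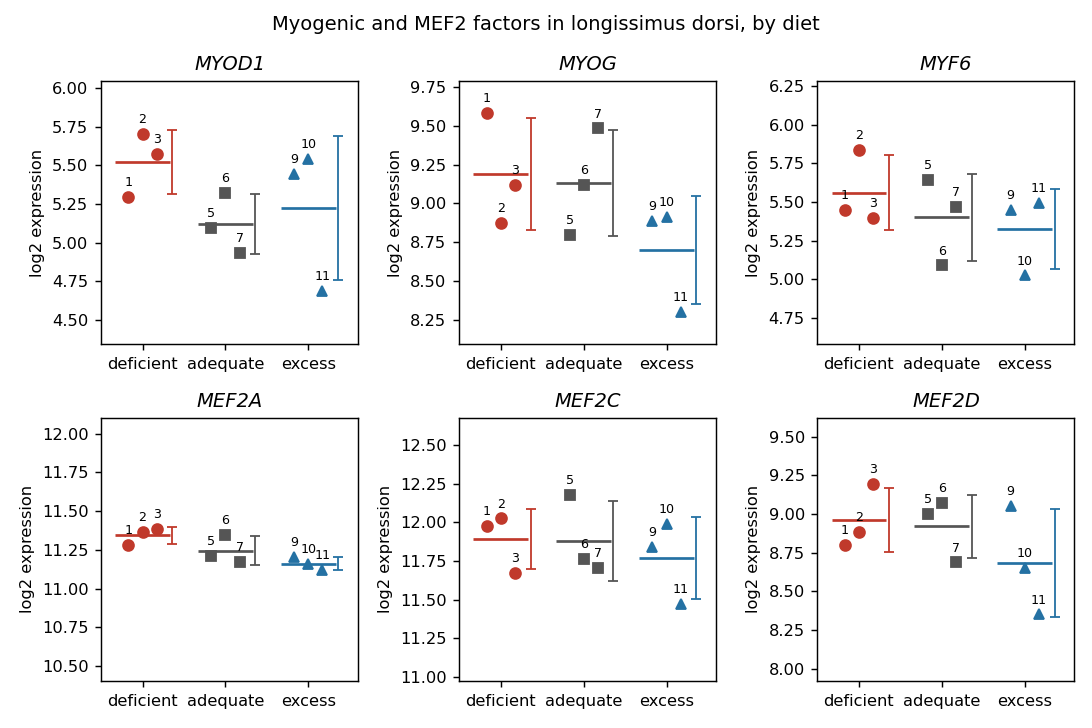
Log2 expression of the 6 measured genes by diet, with 1 point per pig (numbered), a line at the diet mean and a bar of 1 SD (n = 3 pigs per diet); each vertical axis spans the same number of log2 units, and none starts at 0. The points of MEF2A lie closest together, between 11.12 and 11.39, and excess pig 11 is the lowest of the 9 pigs for every gene except MYF6.

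Between deficient and adequate pigs no member passed the test. MYOD1 had the largest difference, with a mean of 5.52 ± 0.21 in deficient pigs and 5.12 ± 0.19 in adequate pigs (SD, n = 3 each), which is 1.32-fold higher (log2 difference 0.40 ± 0.23, SE, 95% interval -0.14 to 0.95). MYF6 differed by 0.16 ± 0.20, MEF2A by 0.10 ± 0.069, MYOG by 0.060 ± 0.26, MEF2D by 0.039 ± 0.20 and MEF2C by 0.012 ± 0.18. All 6 differences were above 0, with a median of 0.080, as were those of 52.9% of all probe sets and 51.7% of all named genes. The differences of MYOG, MEF2C and MEF2D changed sign when 1 of the pigs was left out. By limma with Benjamini-Hochberg adjustment over all probe sets, 0 of 27558 probe sets were called in this comparison (0% of probe sets), and the adjusted p of each member was 1. At an unadjusted p below 0.05 the count was 0 of 6 members, beside 1.85% of all probe sets, and no member separated the groups without overlap, which 6.84% of probe sets did.

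Between excess and adequate pigs no member passed either. MYOG had the largest difference, with a mean of 8.70 ± 0.35 in excess pigs and 9.13 ± 0.34 in adequate pigs (SD, n = 3 each), which is 1.35-fold lower (log2 difference -0.43 ± 0.26, SE, 95% interval -1.03 to 0.17). Without excess pig 11 the difference of MYOG was -0.23 ± 0.25. MEF2D differed by -0.24 ± 0.20, and by -0.069 ± 0.18 without that pig. MEF2C differed by -0.11 ± 0.18 with all pigs and by 0.037 ± 0.17 without excess pig 11, so its sign turned. MEF2A differed by -0.083 ± 0.069, and by -0.062 ± 0.073 without it, and MYF6 by -0.077 ± 0.20, and by -0.16 ± 0.22 without it. MYOD1 differed by 0.11 ± 0.23, so that 1 of the 6 genes had a higher mean than in adequate pigs (2 of 6 without excess pig 11). A higher mean was seen for 50.2% of all probe sets and 45.5% of all named genes (50.7% of named genes without excess pig 11). The adjusted p ran from 0.757 to 0.888 over the 6 genes (limma), none of 27558 probe sets was called (0% of probe sets), 0 of 6 members had an unadjusted p below 0.05, beside 3.56% of all probe sets, and none separated the groups, beside 7.03%.

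MYOD1 was the gene that moved most when excess pig 11 was left out. Its 2 remaining excess pigs, at 5.44 and 5.54, then lay above all 3 adequate pigs, and the log2 difference from the adequate pigs was 0.37 ± 0.15 in place of 0.11 (limma unadjusted p = 0.0436, adjusted p = 1). The smaller pooled spread also changed the deficient against adequate comparison, where the difference of 0.40 had an SE of 0.14 (limma unadjusted p = 0.0211, adjusted p = 1). In these 8 arrays an unadjusted p below 0.05 was reached by 2.44% of probe sets in the excess and 3.54% in the deficient against adequate comparison. In all 9 arrays both diets shared the same adequate pigs, of which pig 7 had the lowest MYOD1 level, 4.94. Without adequate pig 7 the deficient against adequate difference was 0.31.

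Between deficient and excess pigs all 6 genes lay higher in the deficient pigs, by a median of 0.26, and MEF2A alone separated the groups. MEF2A averaged 11.34 ± 0.056 in deficient pigs and 11.16 ± 0.042 in excess pigs (SD, n = 3 each), a 1.13-fold difference (log2 difference 0.18 ± 0.069, SE, 95% interval 0.022 to 0.34). It was the 1 member of 6 with an unadjusted p below 0.05 (limma unadjusted p = 0.0308), a threshold that 4.08% of probe sets reached, and it did not pass over all probe sets (adjusted p = 0.872, from 0.334 to 1 over the alternatives). Groups without overlap were found for 6.47% of probe sets. MYOG differed by 0.49 ± 0.26, MYOD1 by 0.30 ± 0.23, MEF2D by 0.27 ± 0.20, MYF6 by 0.24 ± 0.20 and MEF2C by 0.12 ± 0.18. Here too limma called 0 of 27558 probe sets (0% of probe sets). A positive difference was seen for 50% of all probe sets and 53.9% of all named genes.

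Excess pig 11 carried part of these differences. Without it the median over the 6 genes was 0.14 and 5 of 6 genes lay higher in deficient pigs. MYOG then differed by 0.29, MEF2D by 0.11, MYOD1 by 0.030 and MEF2C by -0.025. MEF2A kept a difference of 0.16 ± 0.073 (limma unadjusted p = 0.0632, where 3.71% of probe sets had one below 0.05), and MYF6, which was not low in pig 11, had a larger one of 0.32 ± 0.22. In the F test over the 3 diets the smallest unadjusted p of a member was that of MEF2A, 0.0832 (limma adjusted p = 0.933), and no probe set passed (0% of probe sets, with 2.54% at an unadjusted p below 0.05).

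The intervals show how precisely the diet differences of the brighter genes were estimated, and their width includes the spread between pigs of a diet. For MEF2A the 95% intervals of the 3 comparisons reached no further than 1.27-fold higher and 1.18-fold lower. For MYOG they reached 2.13-fold higher in deficient against excess pigs and 2.05-fold lower in excess against adequate pigs. For MYOD1 and MYF6, near the median of all probe sets, the intervals give no bound on the fold. A p above the threshold in these groups of 3 does not show equal levels.

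**Figure D2:**
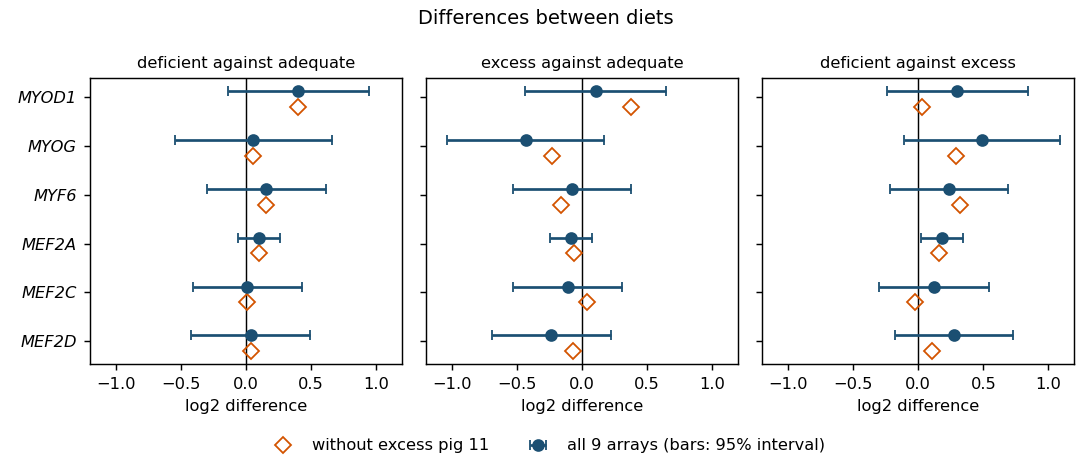
Log2 differences of the 6 genes in the 3 comparisons, the first-named diet minus the second, as filled points with 95% intervals from the fit to all 9 arrays and as open diamonds without excess pig 11. MEF2A in deficient against excess pigs, at 0.18, is the one difference whose interval excludes 0, and in both comparisons with excess pigs the diamonds of MYOD1, MYOG, MEF2D and MEF2C lie farther from their points than that of MEF2A.

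Excess pig 11 was the lowest of the 9 pigs for 5 of the 6 genes, MYOD1, MYOG, MEF2A, MEF2C and MEF2D. Many bright probe sets behaved likewise: within 0.5 log2 units of each gene's level, excess pig 11 was the lowest for 72.6% of probe sets around MYOG, 73.2% around MEF2D, 59% around MEF2A and 46.1% around MEF2C. MEF2D in this pig lay 0.57 below the mean of the other 8 (a deviation of -0.57), near the median deviation of -0.47 of its 1613 neighbours in level. For MEF2A the deviation was -0.15, against a median of -0.23 around it. MYOG deviated by -0.80, beside -0.46 around it, and MEF2C by -0.42, beside -0.14. Around MYOD1 the median deviation was -0.0052 and excess pig 11 was the lowest for 24.6% of probe sets, yet MYOD1 itself deviated by -0.68. The low MYOD1 value of this pig was thus not shared by most probe sets of its level.

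**Figure D3:**
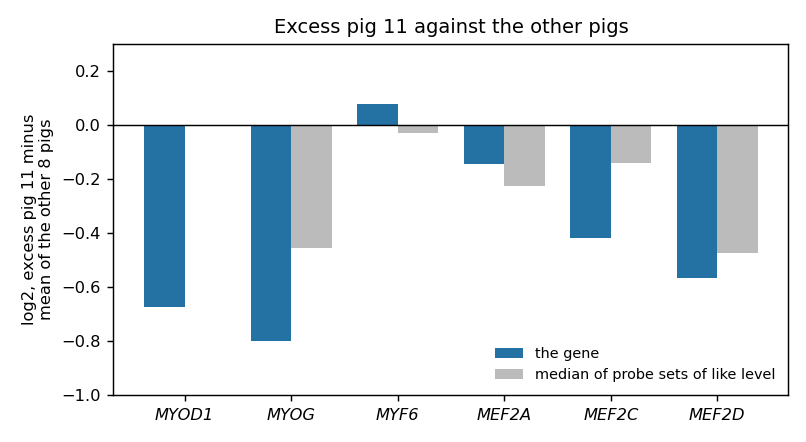
Log2 level of each gene in excess pig 11 minus its mean in the other 8 pigs (blue bars), beside the median of the same quantity over probe sets within 0.5 log2 units of the gene's level (grey bars). The blue and grey bars are of similar length for MEF2A and MEF2D, and for MYOD1 the blue bar stands at -0.68 while the grey one is near 0.

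The width of an array's value distribution was also set against each gene over the 9 pigs, in 6 comparisons adjusted together. MEF2D followed it closely. Pearson's r of MEF2D with the array SD was 0.929 and Spearman's coefficient 0.933 (exact permutation tests over 9 pigs, two-sided, p = 2.7e-04 and p = 7.5e-04, adjusted p = 0.0016 and 0.0045). Without excess pig 11 and deficient pig 3, the arrays farthest from the median SD, r was 0.906. After quantile normalization was applied again it was 0.775. Probe sets of the level of MEF2D had a median r of 0.732 with the array SD, and 92.9% of them had a lower r than MEF2D. The permutation tests are against an r of 0, so they do not test whether MEF2D differs from these probe sets. For the other 5 genes r ran from -0.079 (MYF6) to 0.605 (MYOD1), with adjusted exact permutation p-values of 0.156 or more for r. Without excess pig 11 and deficient pig 3 their r ran from -0.365 (MYOG) to 0.133 (MEF2A), with -0.254 for MYOD1. Probe sets of the level of MYOD1 had a median r of 0.049. With the array SD as a covariate, MEF2D differed by 0.042 between excess and adequate pigs in place of -0.24, and by 0.052 between deficient and excess pigs in place of 0.27. The covariate moved MYOD1 as far, to 0.40 in place of 0.11 between excess and adequate pigs and to 0.061 in place of 0.30 between deficient and excess pigs. MEF2C differed by 0.034 in place of 0.12 between deficient and excess pigs, MYOG by 0.38 in place of 0.49 and MEF2A by 0.15 in place of 0.18.

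The r of the pairs of the 6 genes ran from -0.164 to 0.733, and whether they vary as 1 block was not tested. Of the 15 pairs, 13 had an r above 0 over the 9 pigs, with a median r of 0.238, but without excess pig 11 the count was 8 of 15 and the median 0.016. MEF2A and MEF2D were the closest pair, with r = 0.733 and Spearman's coefficient = 0.80 over 9 pigs (exact permutation p = 0.0202 and p = 0.0138, two-sided, adjusted over the 15 pairs 0.303 and 0.207). Their r was 0.719 without deficient pigs 2 and 3, the farthest from the median of MEF2A, 0.625 without excess pig 11, 0.730 for deviations from the diet means and 0.551 after quantile normalization was applied again. Excess pig 11 was the lowest of the 9 for both genes. With the array SD, the r of MEF2D was 0.929 and that of MEF2A 0.583 (0.133 without excess pig 11 and deficient pig 3). The part of the array SD in this pair was not tested. MYOD1 and MEF2A came next, with r = 0.669 and Spearman's coefficient = 0.633 (exact permutation p = 0.0448 and p = 0.0760, adjusted 0.336 and 0.570). Their r was 0.362 without excess pig 11 and adequate pig 7, the farthest from the median of MYOD1, and 0.520 without excess pig 11 alone. It was 0.681 for deviations from the diet means and 0.260 after quantile normalization was applied again. MYOD1 and MYOG, which act in sequence during myoblast differentiation, had r = 0.238 and Spearman's coefficient = 0.10 (exact permutation p = 0.541 and p = 0.810), and r was -0.458 without excess pig 11. MYOG and MYF6 had r = -0.164 and Spearman's coefficient = -0.550 (exact permutation p = 0.694 and p = 0.133).

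**Figure D4:**
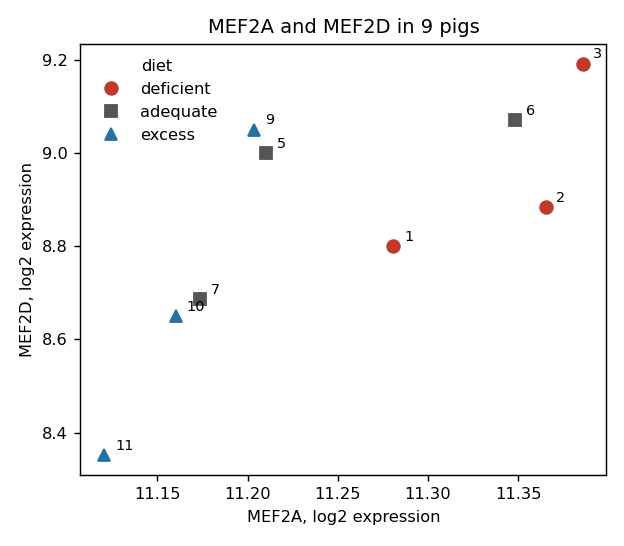
MEF2A (horizontal) against MEF2D (vertical), log2 expression, 1 point per pig, numbered and marked by diet; the axes do not start at 0. Excess pig 11 is lowest on both axes and deficient pig 3 highest on both, and the horizontal axis covers only 0.27 log2 units, against 0.84 for the vertical one.

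Among 6332 other named genes at or above the median level, those with the pattern most like each member over the 9 pigs were taken by the highest r, as a description without a test, since each is the best of many. For MYOD1 they were HSBP1L1 (r = 0.935), NDUFA8, a subunit of respiratory complex I (0.912), and ZFYVE9, which brings SMAD proteins to the TGF-beta receptor (0.905). The likeness of HSBP1L1 to MYOD1 was 0.932 without excess pig 11, and HSBP1L1 differed by 0.43 between deficient and adequate pigs, close to the 0.40 of MYOD1. For MYOG they were TGDS (r = 0.954), PEX7, a receptor for import into peroxisomes (0.935), and ALOX5, arachidonate 5-lipoxygenase (0.926). For MYF6 they were TMEM191C (r = 0.885), ABRA, an actin-binding protein of striated muscle (0.872), and MEOX1, a homeobox factor of the somites (0.866).

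For MEF2A the most alike were WAC (r = 0.969), MIF4GD (0.961) and UBE2D3, a ubiquitin-conjugating enzyme (0.944), with likenesses of 0.964, 0.951 and 0.929 without excess pig 11. For MEF2C they were PDLIM4, a PDZ and LIM domain protein (r = 0.934), POM121C, a nuclear pore protein (0.885), and JMJD1C, a Jumonji domain protein (0.884). The likeness of POM121C and JMJD1C to MEF2C was 0.792 and 0.795 without excess pig 11. For MEF2D they were ATP8B2, a phospholipid flippase subunit (r = 0.989), RASSF1 (0.986) and YAP1, the transcriptional coactivator of the Hippo pathway (0.981). Over the 9 pigs ATP8B2 had the same rank order as MEF2D (Spearman's coefficient = 1). All genes of these arrays share the array SD that MEF2D followed, and its part in the likenesses was not tested.

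Genes around the factors were described from 5 lists. Of 15 other regulators upstream of or related to the factors, 9 were measured: 2 lay higher and 7 lower in deficient than in adequate pigs (median -0.082), and 0 higher and 9 lower in excess than in adequate pigs (median -0.13; without excess pig 11, 2 higher and 7 lower with a median of -0.059). Over all named genes the medians were 0.0041 and -0.019. No gene of any list passed limma's adjusted threshold. EYA1, a coactivator of homeobox factors in muscle development, differed by -0.45 ± 0.31 and PITX3 by -0.24 ± 0.19 between deficient and adequate pigs, while SIX4 differed by 0.15 ± 0.26 and EYA4 by 0.059 ± 0.16. Between excess and adequate pigs KLF5, a Kruppel-like factor, differed by -0.91 ± 0.39 (limma unadjusted p = 0.0479, adjusted p = 0.757; -0.69 without excess pig 11) and VGLL2, a muscle cofactor of TEAD proteins, by -0.28 ± 0.20.

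Of 20 partners and coactivators, 15 were measured, with 6 higher and 9 lower in deficient than in adequate pigs (median -0.031) and 4 higher and 11 lower in excess than in adequate pigs (median -0.13; without excess pig 11, 6 higher and 9 lower with a median of -0.052). CAMK2A, a calcium and calmodulin-dependent kinase, averaged 8.09 in excess pigs and 8.51 in adequate pigs without overlap, a difference of -0.42 ± 0.11 (limma unadjusted p = 0.0065, adjusted p = 0.757; -0.39 without excess pig 11). In deficient against adequate pigs CAMK2A differed by -0.22 ± 0.11. The calcineurin catalytic subunits PPP3CA and PPP3CB differed by 0.14 ± 0.14 and -0.19 ± 0.11 there, and the arginine methyltransferase CARM1 by 0.050 ± 0.19. In excess against adequate pigs the acetyltransferase EP300 differed by -0.26 ± 0.14 (-0.11 without excess pig 11), and the E proteins TCF3 and TCF4 by 0.022 ± 0.11 (0.035 without excess pig 11) and 0.12 ± 0.12.

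Of 25 inhibitors of the factors, 18 were measured, with 10 higher and 8 lower in deficient than in adequate pigs (median 0.0062) and 5 higher and 13 lower in excess than in adequate pigs (median -0.091, and -0.056 without excess pig 11). BHLHE40, a repressor of the helix-loop-helix family, averaged 9.91 in deficient pigs and 10.17 in adequate pigs without overlap, a difference of -0.27 ± 0.087 (limma unadjusted p = 0.0163, adjusted p = 1), and differed by -0.19 ± 0.087 between excess and adequate pigs. ID1, which sequesters E proteins, differed by 0.17 ± 0.29, the repressor SNAI2 by -0.45 ± 0.53 and myostatin, MSTN, by 0.11 ± 0.25 between deficient and adequate pigs. In excess against adequate pigs MDFIC differed by -0.41 ± 0.27, HDAC9, a class IIa histone deacetylase that binds MEF2, by 0.049 ± 0.25 (-0.046 without excess pig 11), and MSTN by 0.18 ± 0.25.

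Of 23 known targets of the myogenic factors only 7 were measured, 3 higher and 4 lower in deficient than in adequate pigs (median -0.11), and 2 higher and 5 lower in excess than in adequate pigs (median -0.067). Of the 7, 3 had mean levels below the median of all probe sets, CHRND, CHRNG and MYL4. CHRND and MYL4 were counted as higher in both comparisons, and signal over background was not tested. CDKN1A, the cell cycle inhibitor p21, differed by 0.40 ± 0.30 in deficient and by -0.59 ± 0.30 in excess pigs from the same adequate pigs. ACTC1, cardiac actin, differed by -0.11 ± 0.092 and the myomesin MYOM2 by -0.16 ± 0.12 in deficient pigs. RAPSN, which clusters acetylcholine receptors, averaged 5.77 in excess pigs and 6.23 in adequate pigs without overlap, a difference of -0.45 ± 0.20 (-0.30 without excess pig 11).

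Of 22 known MEF2 targets, 15 were measured, with 5 higher and 10 lower than in adequate pigs both in deficient pigs (median -0.018) and in excess pigs (median -0.039; without excess pig 11, 6 higher and 9 lower with a median of -0.012). In excess against adequate pigs 4 of the 15 had groups without overlap, beside 7.03% of all probe sets. These were TNNC1, slow troponin C, at 0.47 ± 0.11, MYL2, a slow myosin light chain, at 0.35 ± 0.11, KLHL40, a kelch protein of the sarcomere, at -0.74 ± 0.36 (-0.52 without excess pig 11), and KLHL31, another kelch protein of muscle, at -0.11 ± 0.069 (-0.055 without excess pig 11), the last named after its values were seen. TNNC1 was also higher without overlap in deficient pigs, at 0.29 ± 0.11 (limma unadjusted p = 0.0284, adjusted p = 1). JUN differed by 0.30 ± 0.30, SMYD1, a muscle methyltransferase, by -0.11 ± 0.080 and HRC, a calcium-binding protein of the sarcoplasmic reticulum, by -0.26 ± 0.19 in deficient pigs, and HRC by -0.37 ± 0.19 in excess pigs (-0.15 without excess pig 11). The 2 comparisons share the adequate pigs. In excess against adequate pigs, groups without overlap were found for 0 of 9 upstream and related factors, 1 of 15 partners and 0 of 18 inhibitors. The count was 1 of 7 for myogenic factor targets and 1 of 13 for satellite cell markers. In deficient against adequate pigs the counts of these 5 lists were 0, 0, 2, 1 and 1. MEF2 targets had 1 of 15 there, beside 6.84% of all probe sets.

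**Figure D5:**
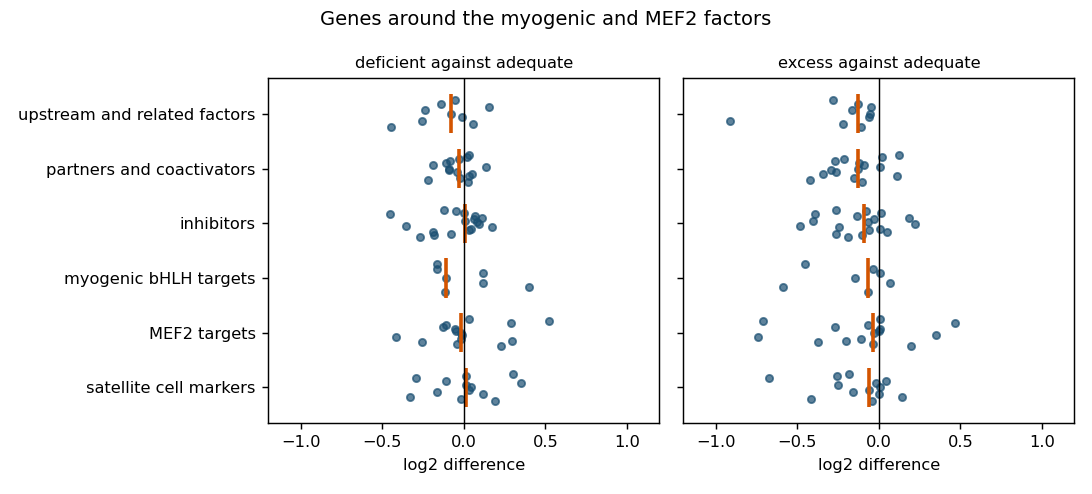
Log2 differences of the measured genes of 5 lists around the factors and of the satellite cell markers, 1 point per gene and an orange line at the median, for deficient minus adequate (left) and excess minus adequate pigs (right). The medians lie between -0.11 and 0.014 on the left and between -0.13 and -0.039 on the right, and the points of each list spread to both sides of 0 except for the upstream and related factors on the right.

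Satellite cell markers other than PAX7 were measured for 13 of 17 genes. In deficient against adequate pigs 8 were higher and 5 lower (median 0.014), and in excess against adequate pigs 4 were higher and 9 lower (median -0.058). VCAM1, an adhesion molecule, differed by 0.30 ± 0.18, the chemokine receptor CXCR4 by 0.12 ± 0.085, FGFR4 by -0.17 ± 0.22 and the syndecan SDC3 by -0.11 ± 0.11 in deficient pigs. In excess pigs SDC4 differed by -0.67 ± 0.46 (-0.46 without excess pig 11), SPRY1, an inhibitor of growth factor signalling, by -0.26 ± 0.16, CHODL by 0.14 ± 0.45 and SDC3 by 0.046 ± 0.11. CXCR4 in deficient pigs and SPRY1 in excess pigs did not overlap the adequate pigs. In whole muscle, fewer cells of a type and less RNA per cell cannot be told apart.

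Markers of other cells also differed in level between the diets, though no marker passed limma's adjusted threshold, and their part in the members' values was not tested. All 10 measured fibroblast markers had lower means in both diets than in adequate pigs, with medians of -0.44 in deficient and -0.50 in excess pigs (-0.32 without excess pig 11). Groups without overlap were found for 4 of the 10 in each diet. Over all probe sets the shares were 6.84% in deficient and 7.03% in excess against adequate pigs. The log2 levels of the 10 markers summed to 89.9 to 95.6 in deficient pigs, 96.4 to 99.4 in adequate pigs and 87.9 to 95.4 in excess pigs. Of the 7 smooth muscle and pericyte markers 6 were lower in each diet (medians -0.28 and -0.30, the second -0.17 without excess pig 11), with sums of 52.7 to 53.6 in deficient, 54.0 to 56.4 in adequate and 51.7 to 54.7 in excess pigs. Of the 8 adipocyte markers 7 were higher in deficient pigs and 7 lower in excess pigs than in adequate pigs (medians 0.13 and -0.42; without excess pig 11, 5 were lower in excess pigs). Their sums ran from 49.0 to 51.5 in deficient, 46.7 to 50.1 in adequate and 45.9 to 47.0 in excess pigs. Between deficient and excess pigs, where MEF2A separated the groups, 7 of 8 adipocyte markers were higher in deficient pigs, with a median of 0.58, 4 of them with an unadjusted p below 0.05 and 5 without overlap (4.08% and 6.47% of all probe sets). Among them CIDEC, a lipid droplet protein, and CFD, complement factor D, named after their values were seen, differed by 0.98 ± 0.17 (limma unadjusted p = 5.4e-04, adjusted p = 0.872) and 0.68 ± 0.11 (limma unadjusted p = 3.4e-04, adjusted p = 0.872), and the others without overlap were PLIN1 (0.88), LIPE (0.57) and PPARG (0.58, with an unadjusted p above 0.05). In that comparison 7 of 10 fibroblast markers were higher with a median of 0.12, and 3 of 10 with a median of -0.12 without excess pig 11. Endothelial markers (6 measured), immune markers (7) and nerve markers (3) had medians between -0.099 and 0.066 in both comparisons with adequate pigs. The 7 fibre markers summed to 88.7 to 89.1 in deficient, 89.1 to 89.6 in adequate and 89.3 to 89.9 in excess pigs. In excess against adequate pigs 4 of the 7 were higher and 3 lower. Only MYH7, named after its values were seen, was without overlap there, higher by 0.28 ± 0.14 in excess pigs.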

How the data were processed

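The deposited table holds the authors' processed log2 values of 27558 probe sets on 9 arrays. The log base is inferred from their range (3.10 to 14.30). Per the submitters' processing notes GCOS 1.2 and Partek were used, without a role. How background was corrected, probes summarized and arrays normalized is not stated in the labels. Symbols came from the platform annotation (13323 probe sets with 1 symbol, 357 with several, 13878 unnamed here), updated through Entrez IDs in the pig gene table of Sscrofa11.1, which changed 7 symbols. Coordinates and sequences are not given, because the array's build is not stated and no sequence table was used here.

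The values were used without further normalization. All probe sets were fitted with limma 3.58.1 in R 4.3.3 (lmFit with 1 mean per diet on all 9 arrays, eBayes), two-sided, with Benjamini-Hochberg adjustment over all probe sets and a threshold of 0.05. The fit was tested on simulated data. Correlations used exact permutation tests in scipy 1.17.1. The number of arrays, 3 per diet, limits the precision, and the replicates were separate pigs by their labels. Any control probe sets stayed in, since the annotation does not mark them.

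A gene was represented by its brightest probe set on average. The members and gene lists were chosen with earlier results of these data known. From each list around the factors and the satellite list, the 2 genes with the smallest unadjusted p in each direction, at or above the median level, are named for deficient and for excess against adequate pigs. Lists of markers of other cell types are given by counts, medians and summed levels. For likeness the 3 genes with the highest r were taken, passing over loci without an approved symbol and probe sets with values identical to another's. HEY1 and HEYL are on both the inhibitor and the satellite list, NCAM1 on the satellite and the nerve list, and TNNC1, MYL2 and other MEF2 targets are fibre genes. Alternatives are given at the end. No column of other samples was present.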

Additional observations from a re-analysis of the deposited data

How the results depend on the processing

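The 18 member differences (6 genes in 3 comparisons) were recomputed under 17 alternatives each. None of the 306 values passed the adjusted threshold (lowest limma adjusted p = 0.294), 288 kept their direction and 18 did not, and 10 of the 18 differences never changed sign. Some alternatives can change only the p-value of a difference, and their directions, fixed in advance, are counted among the 288. These are fitting only the 6 arrays compared and an intensity trend with a robust prior. Leaving out dim probe sets, those without 1 gene symbol or a pig of the diet not compared are the others. Array quality weights turned MEF2D in deficient against adequate pigs (-0.025) and MYF6 in excess against adequate pigs (0.0088), and the array SD as a covariate turned MEF2D in excess against adequate pigs (0.042). With 1 pig left out, deficient against adequate ranged from -0.14 to 0.24 for MYOG, from -0.077 to 0.16 for MEF2C and from -0.078 to 0.12 for MEF2D. Excess against adequate ranged from -0.052 to 0.37 for MYOD1, from -0.23 to 0.072 for MYF6 and from -0.22 to 0.037 for MEF2C, and deficient against excess from -0.025 to 0.23 for MEF2C. The cause was not tested.

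Over all probe sets the count called was 0 in each comparison. Array quality weights called 1 probe set, PHGDH, in deficient against adequate pigs and 1 in the F test, and testing only probe sets with 1 gene symbol called 1, PHGDH, in deficient against excess pigs. The counts at an unadjusted p below 0.05 were 511 (233 to 2207 over the alternatives) in deficient against adequate, 981 (272 to 4638) in excess against adequate, 1124 (456 to 3969) in deficient against excess pigs and 700 (356 to 2960) in the F test, so the background shares depend on the setting. List counts and pair correlations without excess pig 11 or after quantile normalization were alternatives chosen after seeing the data. The mean of a gene's probe sets was not run, since each member has 1. No paired analysis was possible because the pigs of different diets share no replicate number. Signal over background was not tested, which limits MYOD1 and MYF6. It also limits the list genes with means below the median of all probe sets, such as 5 of the 18 inhibitors.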
